A study of Mus musculus with 4 samples.

Results

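The genes described here are 10 chemokines of the CC and CXC families, Ccl2, Ccl7, Ccl8, Ccl12, Ccl3, Ccl4, Ccl6, Ccl9, Cxcl2 and Cxcl13, among the 32285 genes listed in the files. They were picked by symbol, and their unique molecular identifiers (UMIs, 1 for each captured transcript) were read in cell classes set by other genes. A cell was put in the myeloid class when Lyz2, Tyrobp, Fcer1g and Ctss together gave at least 4 UMIs and the keratins Krt8 and Krt18 together gave at most 2. Chemokines are small secreted proteins that bind to receptors on leukocytes and set the direction in which these cells move. CC chemokines such as Ccl2 and Ccl7 draw monocytes through Ccr2, CXC chemokines such as Cxcl2 draw neutrophils through Cxcr2, and Cxcl13 draws B cells through Cxcr5. Macrophages and monocytes are well known sources of many of them in inflamed tissue and in ascites.

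The samples came from Swiss albino mice that were injected intraperitoneally with Dalton's lymphoma ascites (DLA) cells, a transplantable mouse tumour. The SP11 group was given SP11, an inhibitor of the chaperone HSP90, orally at 30 mg/kg for 17 days. Controls are labelled as untreated, whereas supplementary text names a vehicle. Each group held 2 libraries (Control 1, Control 2, SP11 1 and SP11 2), made from dissociated tumours after lysis of red cells, and no age or sex is given for the animals. The sources speak of 2 independent sets, and do not say how many mice each library stands for, so the p-values below measure the spread between these libraries.

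After filtering, 566 to 1831 cells and 9574906 to 13024964 UMIs were kept per library. The myeloid class held 34 cells (3.71%) of Control 1, 19 (3.36%) of Control 2, 267 (14.6%) of SP11 1 and 181 (16.6%) of SP11 2, with median depths of 1597, 2446, 1047 and 1885 UMIs. Of the distinct barcodes of kept cells, 16.9% (630 of 3719) were present in more than 1 library. Such barcodes made up 41.2%, 41.9%, 29.8% and 36.8% of the kept cells of the 4 libraries, in the same order, and belonged to 10, 8, 67 and 71 myeloid cells. Whether reads passed between libraries was not tested, and results are also given without these cells. The main population carried keratin and Epcam (3039 to 5671 CPM for 4 epithelial genes) and little T cell receptor or Cd3 RNA (0.212 to 8.76 CPM for 6 genes), although the labels give the cell type as lymphoma. It is called the tumour class below. Its gate asked for at least 3 UMIs of Krt8 and Krt18, which are among the 4 epithelial genes, so their level was partly set by the gate. CPM stands for the UMIs of a gene for each 1000000 UMIs of the summed cells of a class.

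The myeloid class carried all 8 macrophage markers in every library, at summed levels of 1557 to 1570 CPM in the controls and 1527 to 1780 CPM with SP11. The 6 monocyte markers, of which Ly6c2 was at 0 throughout, summed to 1206 to 2210 CPM in the controls and 3229 to 3539 CPM with SP11. Cells with at least 2 UMIs of Fn1 and Vcan, which mark monocytes, made up 29.4% and 47.4% of the control myeloid cells against 61.4% and 66.9% of those with SP11. Genes listed as markers of other cell types also moved with the group. The 4 haemoglobin genes summed to 285 to 289 CPM of the control myeloid cells and 78006 to 82812 CPM with SP11, the 5 B cell markers to 0 and to 1000 to 1688 CPM, and the 6 T cell markers to 0 and to 54.1 to 57.0 CPM. Of the 7 neutrophil markers, 3 were detected in each control (117 to 124 CPM) and 7 in each SP11 library (376 to 553 CPM). The 7 dendritic cell markers summed to 4316 to 5258 CPM in the controls (4 detected, with Flt3, Xcr1 and Clec9a at 0) and 5936 to 6235 CPM with SP11 (6 and 7 detected). The numbers detected compare sums of 59720 and 48422 UMIs in the controls with 314038 and 403495 UMIs with SP11, where more genes can be detected. The fibroblast and mesothelial markers were at 0 except in SP11 1 (95.5 CPM). The part of this RNA in the results below was not tested, except where a value without it is given.

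The genes lie on chromosomes 11 and 5 of the mouse genome (GRCm38, GENCODE vM21). Ccl2 (chr11:82035571-82037453), Ccl7 (chr11:82045712-82047525), Ccl12 (chr11:82101845-82103400) and Ccl8 (chr11:82115185-82116799) lie within the same stretch of chromosome 11 on the plus strand and encode the monocyte chemoattractant group. A second stretch of chromosome 11 holds Ccl9 (chr11:83572919-83578636, minus strand), Ccl6 (chr11:83587882-83593087, minus), Ccl3 (chr11:83647844-83649355, minus) and Ccl4 (chr11:83662584-83664683, plus). Cxcl2 (chr5:90903871-90905938) and Cxcl13 (chr5:95956951-95961068) are on the plus strand of chromosome 5. Ccl2 overlaps Gm17268 and Ccl6 overlaps E230016K23Rik on the opposite strand. The sources do not say how reads shared between such similar genes were counted.

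The RefSeq table of promoters (GRCm38.p6) had an entry for 7 of the 10 genes, and 4 windows of 250 bases before the annotated start are shown because they belong to a pair of genes of the first stretch and to Ccl9 and Cxcl2, whose myeloid levels were higher in both SP11 libraries than in both controls. Capitals mark TATAAA, a loose form of the NF-kB site (GGG and CC with any 5 bases between them) and TGANTCA (an AP-1 form), searched on both strands, and overlapping matches run together. The windows are Ccl8 (chr11:82114935-82115184, plus), Ccl12 (chr11:82101595-82101844, plus), Ccl9 (chr11:83578637-83578886, minus) and Cxcl2 (chr5:90903649-90903898, plus). Windows and distances refer to the RefSeq start. For Cxcl2 this lies past the GENCODE start given above (chr5:90903871), so its window runs into the first bases of that gene.
Ccl8: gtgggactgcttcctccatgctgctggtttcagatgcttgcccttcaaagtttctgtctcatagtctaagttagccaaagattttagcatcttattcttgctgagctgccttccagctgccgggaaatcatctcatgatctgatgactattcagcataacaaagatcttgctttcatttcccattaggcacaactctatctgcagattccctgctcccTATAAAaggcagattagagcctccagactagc
Ccl12: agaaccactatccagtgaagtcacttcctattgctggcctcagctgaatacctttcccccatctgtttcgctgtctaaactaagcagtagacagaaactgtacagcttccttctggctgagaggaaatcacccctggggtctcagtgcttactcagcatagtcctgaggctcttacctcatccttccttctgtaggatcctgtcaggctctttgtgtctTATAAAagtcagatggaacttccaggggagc
Ccl9: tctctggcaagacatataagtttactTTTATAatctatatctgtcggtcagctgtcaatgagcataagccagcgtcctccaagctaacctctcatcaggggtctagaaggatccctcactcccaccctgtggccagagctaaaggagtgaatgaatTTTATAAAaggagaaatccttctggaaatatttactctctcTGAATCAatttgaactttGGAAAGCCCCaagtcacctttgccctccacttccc
Cxcl2: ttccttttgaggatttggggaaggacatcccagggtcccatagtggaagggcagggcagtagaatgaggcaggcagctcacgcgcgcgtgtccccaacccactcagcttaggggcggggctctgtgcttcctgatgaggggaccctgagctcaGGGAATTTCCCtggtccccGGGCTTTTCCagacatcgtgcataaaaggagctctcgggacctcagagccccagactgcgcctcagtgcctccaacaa
The Ccl8 and Ccl12 windows hold TATAAA at 26 and 25 bases from the start and no match of the NF-kB form. The Cxcl2 window holds 3 matches of the NF-kB form at 87, 86 and 68 bases from the start, and the first pair overlaps. The Ccl9 window holds 3 matches of TATAAA (an overlapping pair among them), 1 of the NF-kB form and 1 of TGANTCA. Among all 32851 windows of this length, 12.4% held TATAAA, 45.8% the NF-kB form and 6.75% TGANTCA, and of the 7 windows of these chemokines 4, 3 and 1 did. The Ccl3 and Ccl6 windows held none of the 3. TTCCNGGAA (a STAT form), searched as well and not marked, was in 0.913% of all windows and in 0 of the 7.

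Most RNA of every chemokine but Cxcl13 was found in myeloid cells, and part of the Cxcl2 RNA in neutrophils. The list was chosen as chemokines of myeloid cells, so these shares are a description and carry no test. Over the 4 libraries, myeloid cells held 77.0% of 457 Ccl2 UMIs, 80.1% of 206 Ccl7 UMIs, 89.9% of 189 Ccl8 UMIs and 76.2% of 42 Ccl12 UMIs. They held 67.5% of 163 Ccl3 UMIs and 67.3% of 245 Ccl4 UMIs. The same class held 71.9% of 4712 Ccl6 UMIs, 73.5% of 808 Ccl9 UMIs and 52.8% of 4765 Cxcl2 UMIs. Barcodes that carried at least 3 keratin and 4 myeloid gate UMIs, which may hold more than 1 cell or free RNA, had 2.65% (Ccl8) to 16.8% (Cxcl2) of the UMIs of these 9 genes. Lymphoid cells had 0 UMIs of Ccl2, Ccl8, Ccl12 and Ccl3, and from 0.276% to 0.816% of the UMIs of Ccl7, Ccl4, Ccl6, Ccl9 and Cxcl2.

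**Figure D1:**
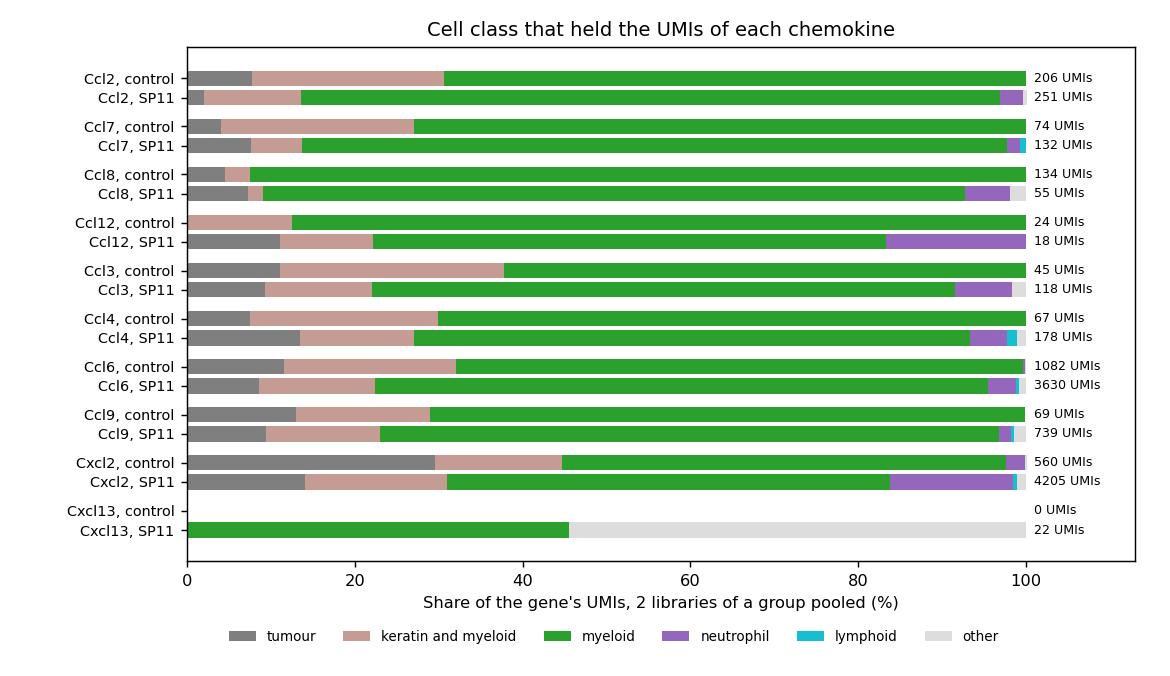
Horizontal bars give the share (%) of each gene's UMIs held by 6 cell classes, with the 2 libraries of a group pooled and the number of UMIs at the right. The myeloid segment is the longest in every bar but those of Cxcl13, which had 0 UMIs in the controls and 22 in SP11 1, and Cxcl2 shows the longest neutrophil segment after Ccl12 among the SP11 bars.

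Neutrophils were a source of Cxcl2 that could be read with SP11 only, because the gate held 4 and 1 barcodes of the controls. Cxcl2, which recruits neutrophils themselves, had 111 UMIs in 25 of 27 neutrophils of SP11 1 (3918 CPM) and 506 UMIs in 55 of 59 neutrophils of SP11 2 (6809 CPM). These levels lay above those of the myeloid cells of the same libraries (3315 and 2927 CPM). In Control 1, 3 of 4 neutrophils held 13 Cxcl2 UMIs, whereas the only barcode of this gate in Control 2 held 0. That barcode carried mostly haemoglobin RNA (2006 UMIs, 761869 CPM of 4 genes) and 21 UMIs of 3 of the 7 neutrophil markers, so its markers go against its class. Ccl6 was present in the neutrophils of SP11 1 and SP11 2 at 1624 and 1009 CPM, below its myeloid levels of 4006 and 3462 CPM. RNA of other cells was present in these neutrophils, with macrophage markers at 1200 and 350 CPM (1780 and 1527 CPM in myeloid cells), monocyte markers at 1483 and 404 CPM and haemoglobin at 267243 and 270967 CPM. Dendritic cell markers were at 4695 and 1400 CPM, and B cell markers at 3495 to 7563 CPM in the SP11 libraries. The library with more macrophage RNA in its neutrophils also had more Ccl6 there, and the part of this RNA was not tested. The other chemokines had 0 to 6 UMIs per library in neutrophils, and the few Ccl12 UMIs of this class (3) came from a single cell.

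Cells at the limit of the myeloid gate give an idea of how sharp it is. With exactly 4 gate UMIs, 19 cells were just inside, all in the SP11 libraries, and 8 of them (42.1%) held a UMI of any of these chemokines. With 3 gate UMIs, 31 cells were just outside, and 15 of them (48.4%) held 1.

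The SP11 contrast asks which of these genes were lower or higher in myeloid cells of treated mice. Within the myeloid class 5 of the 10 chemokines were called lower with SP11 (Ccl2, Ccl8, Ccl7, Ccl6 and Ccl4) and 1 higher (Ccl9). Of these, Ccl8 met the filter on low counts through the controls alone. The calls are from edgeR's quasi-likelihood test with Benjamini-Hochberg adjustment over all 2721 genes tested. Ccl3 and Cxcl2 did not pass, and Ccl12 and Cxcl13 were left out by the filter on low counts. Of all genes tested, 3.05% (83) were lower and 3.71% (101) higher, and 620 had an unadjusted p under 0.05. The 8 tested chemokines had a median log2 fold change of -1.22, against 0.06 over all genes. The myeloid CPM of all 8 did not overlap between groups, 6 being lower and 2 higher, and the same held for 27.3% (lower) and 27.2% (higher) of all genes. These counts describe genes proposed with earlier results in view. The filter asked for 53.5 CPM in 2 libraries, which 7 of the 8 met in each group taken alone. Ccl8 met it in the controls alone, with 1 SP11 library, so that a lower level with SP11 was favoured by the filter.

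**Figure D2:**
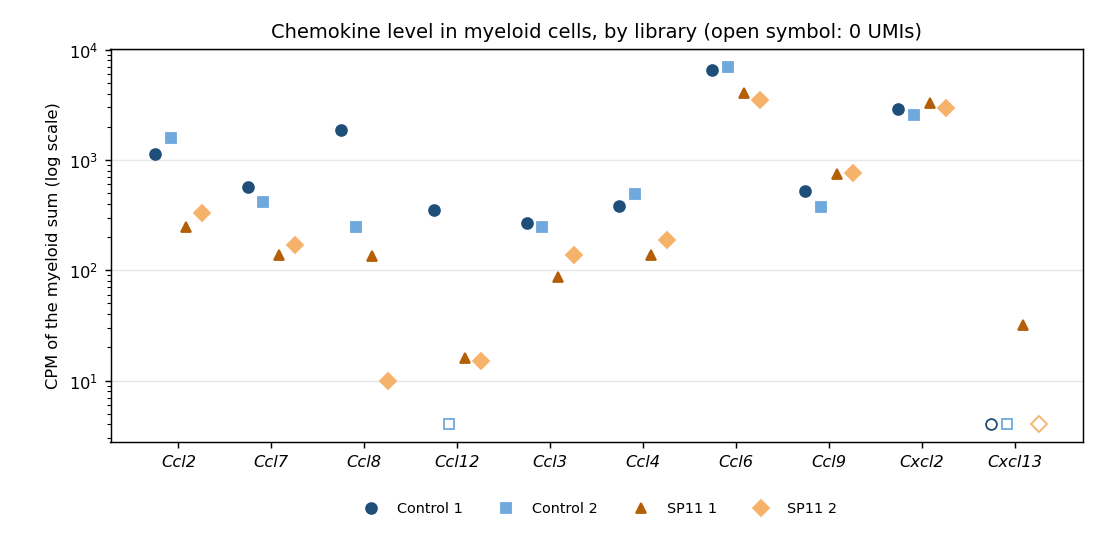
Points give the CPM (log axis) of each chemokine in the summed myeloid cells of each library, and open symbols at the bottom stand for 0 UMIs. Both SP11 libraries lie below both controls for Ccl2 (245 and 327 against 1122 and 1570 CPM), Ccl7, Ccl8, Ccl3, Ccl4 and Ccl6, and above them for Ccl9 and Cxcl2.

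Ccl2, the main ligand of Ccr2 on monocytes, had 67 UMIs in the myeloid cells of Control 1, 76 in Control 2, 77 in SP11 1 and 132 in SP11 2. Scaled to the UMIs of the class these were 1122, 1570, 245 and 327 CPM, so both controls lay far above both SP11 libraries. The group means were 1346 ± 317 CPM in the controls and 286 ± 57.9 CPM with SP11 (SD, n = 2), a ratio of 4.70, and the log2 fold change was -2.12 (SE 0.24, edgeR adjusted p = 7.92e-07). It was the only tested chemokine whose fall passed under each of the 18 alternatives run, with log2 fold changes from -2.38 to -1.59 and adjusted p from 8.49e-15 to 0.0324. Without barcodes shared between libraries it was -2.37.

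A smaller share of myeloid cells held Ccl2 in the SP11 libraries. Of the myeloid cells, 22 of 34 (64.7%) and 15 of 19 (78.9%) in the controls had a Ccl2 UMI, against 45 of 267 (16.9%) and 44 of 181 (24.3%) with SP11. After each cell was thinned to 500 UMIs (no myeloid cell was shallower), the shares were 35.3% (95% exact interval 19.7% to 53.5%), 42.1% (20.3% to 66.5%), 7.87% (4.93% to 11.8%) and, in SP11 2, 20 of 181 cells. In tumour cells thinned alike, whose median depths were 8730 to 19584 UMIs before thinning, the share was 0% to 0.189%, far below the myeloid share in every library. Unthinned tumour cells had Ccl2 in 0.181% to 1.70%. The exact permutation test of 2 against 2 libraries cannot go below p = 0.33, so shares carry no call. These intervals cover counting error only.

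**Figure D3:**
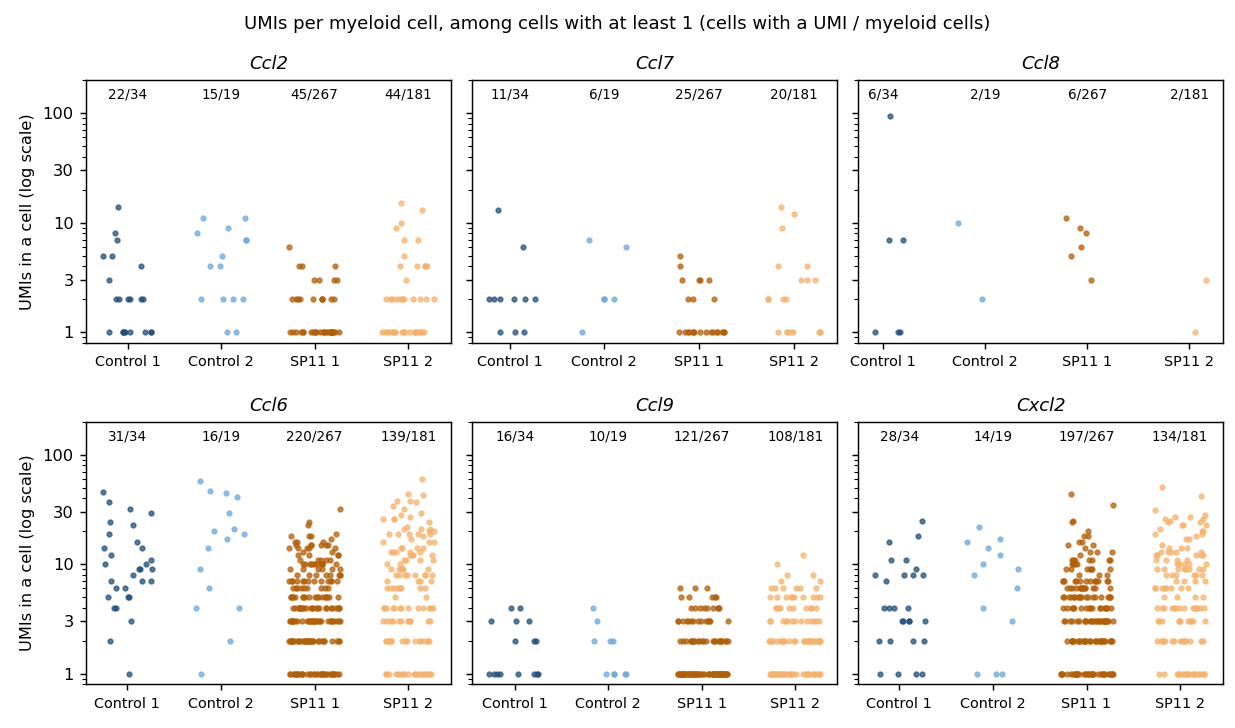
Each point is a myeloid cell with at least 1 UMI of the gene named above the panel, placed by its UMIs (log axis) and its library, and the fractions give cells with a UMI over all myeloid cells. Ccl2 was found in 22 of 34 and 15 of 19 control cells against 45 of 267 and 44 of 181 cells with SP11, and a single Control 1 cell held 95 Ccl8 UMIs.

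Ccl7, which acts on Ccr2 as Ccl2 does, had 34, 20, 43 and 68 myeloid UMIs in Control 1, Control 2, SP11 1 and SP11 2, or 569, 413, 137 and 169 CPM. The controls were again the higher pair. Its log2 fold change was -1.60 (SE 0.31, edgeR adjusted p = 0.00193), with means of 491 ± 111 and 153 ± 22.3 CPM (SD, n = 2). Of the cells with Ccl7, 8 of 11 in Control 1, 6 of 6 in Control 2, 14 of 25 in SP11 1 and 12 of 20 in SP11 2 also held Ccl2, above the share of Ccl2 over all myeloid cells of each library. Without Control 1 the fall of Ccl7 did not pass (-1.35, adjusted p = 0.0983), and without shared barcodes it did (-1.60, adjusted p = 0.00159).

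Ccl8 and Ccl12 were carried by few cells. Ccl8, another chemoattractant of the Ccl2 group, had 112, 12, 42 and 4 myeloid UMIs (1875, 248, 134 and 9.91 CPM) in 6, 2, 6 and 2 cells. Control 1 stands apart because 95 of its 112 UMIs came from 1 cell with 3154 UMIs in all, 0 UMIs of C1qa, C1qb and C1qc, 45 of Cd74 and 33 of Wfdc17. Ccl8 met the filter on low counts through the controls alone, so that a lower level with SP11 was favoured by the filter. The log2 fold change was -3.94 (SE 0.59, edgeR adjusted p = 6.55e-05), and it was -1.95 (adjusted p = 0.00458) without the cell of 95 UMIs. It was -1.81 (adjusted p = 0.0640) without Control 1, -6.40 without SP11 1, -3.77 (adjusted p = 7.14e-29) with no filter and -3.81 (adjusted p = 0.159) in DESeq2. Cells with unshared barcodes held 112, 0, 17 and 1 Ccl8 UMIs, too few to pass the filter. Ccl12, a mouse relative of Ccl2, had 21, 0, 5 and 6 myeloid UMIs in 5, 0, 4 and 4 cells, so its groups overlapped and no fold is given. In Control 1 and SP11 1 all cells with Ccl12 (5 and 4) also held Ccl2, as did 3 of 4 in SP11 2.

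Ccl3 and Ccl4, macrophage inflammatory proteins whose genes lie close together, had lower levels with SP11, and Ccl4 passed the test. Ccl4 had 23, 24, 43 and 75 myeloid UMIs, or 385, 496, 137 and 186 CPM in Control 1, Control 2, SP11 1 and SP11 2. The lower control was above the higher SP11 library. Its log2 fold change was -1.33 (SE 0.32, edgeR adjusted p = 0.00974), and it lost the call without Control 2 (-1.17, adjusted p = 0.144), without SP11 1 (-0.96, adjusted p = 0.0904), with no filter on low counts (-1.14, adjusted p = 0.0768) and without shared barcodes (-1.10, adjusted p = 0.0536). Ccl3 had 268, 248, 86.0 and 136 CPM from 16, 12, 27 and 55 UMIs. Its log2 fold change of -1.11 (SE 0.39, adjusted p = 0.0843) did not pass in any of the 17 alternatives that tested it. Unthinned shares of myeloid cells with a Ccl4 UMI were 41.2% and 47.4% in the controls against 11.6% and 22.1%, and thinned shares were 17.6%, 21.1%, 6.37% and 8.84%.

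Ccl6 and Ccl9, which signal through Ccr1, went in different directions. Ccl6 had 394, 337, 1258 and 1397 myeloid UMIs, or 6597, 6960, 4006 and 3462 CPM. The controls lay close together and above both SP11 libraries, with means of 6779 ± 256 and 3734 ± 384 CPM (SD, n = 2). Its log2 fold change was -0.77 (SE 0.16, edgeR adjusted p = 0.00376). Unlike Ccl2, it was found in most myeloid cells of every library (91.2%, 84.2%, 82.4% and 76.8%, and 85.3%, 78.9%, 73.8% and 58.0% after thinning). Ccl6 passed in 12 of 18 alternatives, with log2 fold changes from -0.91 to -0.25. The call was lost without Control 2 (-0.74), without SP11 1 (-0.70) and without SP11 2 (-0.48), and was kept without shared barcodes (-0.75, adjusted p = 0.00726). Ccl9 had 31, 18, 235 and 310 UMIs, or 519, 372, 748 and 768 CPM, and both SP11 libraries were above both controls. Its log2 fold change was 0.84 (SE 0.26, edgeR adjusted p = 0.0476), just past the threshold, and it passed in 8 of 18 alternatives. The call of Ccl9 was lost without Control 1 (1.10, adjusted p = 0.175), Control 2 (0.62, 0.419) or SP11 2 (1.01, 0.0559), and was kept without shared barcodes (1.07, 0.0122). Nearly all Ccl9 cells also held Ccl6 (15 of 16, 10 of 10, 115 of 121 and 103 of 108). Most myeloid cells did so too (91.2%, 84.2%, 82.4% and 76.8%), so much of this overlap goes with how common Ccl6 was.

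Cxcl2 had 172, 124, 1041 and 1181 UMIs in myeloid cells, or 2880, 2561, 3315 and 2927 CPM. The groups lay next to each other without overlap, and the log2 fold change of 0.29 (SE 0.18, edgeR adjusted p = 0.348) did not pass there or in any of 18 alternatives (0.19 to 0.67). Of the myeloid cells, 82.4%, 73.7%, 73.8% and 74.0% held Cxcl2, and 64.7%, 47.4%, 60.7% and 56.9% after thinning. Among the Cxcl2 cells, Ccl2 was found in 19 of 28, 12 of 14, 40 of 197 and 36 of 134. These shares (67.9%, 85.7%, 20.3% and 26.9%) were close to those over all myeloid cells (64.7%, 78.9%, 16.9% and 24.3%).

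Cxcl13, the B cell attractant, was found in 2 barcodes of SP11 1 and in no other kept cell. One, in the class outside all gates, had 12 Cxcl13 UMIs of 1171 together with 15 of Dcn and 6 of Col3a1, which are made by fibroblasts. The other, in the myeloid class, had 10 of 2215 with 16 of Dcn, 16 of Sparc and 7 of Col3a1, beside 15 of Lyz2 and 7 of Fn1. Only 4 kept cells, all in SP11 1, held Dcn or Col3a1, and the myeloid class had 1 of them. Myeloid cells of Control 1 had a Cxcl13 UMI in 0 of 34 cells, which allows a share of cells with a UMI of up to 8.82%, and those of Control 2 in 0 of 19, which allows up to 15.8%. These limits are not limits on cells that express the gene. Its label as a myeloid chemokine thus rests here on 1 cell that also held fibroblast RNA.

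The myeloid class differed in its makeup between groups, so the contrast was also fitted within cells low and high in Fn1 and Vcan. Ccl2 fell in both. Cells with under 2 UMIs had 1123, 1828, 301 and 444 CPM of Ccl2 (-1.59, edgeR adjusted p = 0.0324), and cells with at least 2 had 1120, 1347, 211 and 264 CPM (-2.19, adjusted p = 1.25e-09). Ccl6 fell in the high cells (-0.64, edgeR adjusted p = 0.00870) and did not pass in the low cells (-0.91, adjusted p = 0.144). Ccl9 rose in the high cells (1.03, adjusted p = 0.0176), and in the low cells its value was 0.20 (adjusted p = 0.866). Ccl9 levels in high cells were 585, 539, 942 and 1062 CPM, and in low cells 485, 178, 434 and 226 CPM. Ccl7 (-1.59 in low and -0.98 in high cells) and Ccl4 (-1.53 and -0.75) passed in neither. The differences between low and high cells were not tested. The neutrophil markers, haemoglobin and B cell RNA above moved with these contrasts too.

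**Figure D4:**
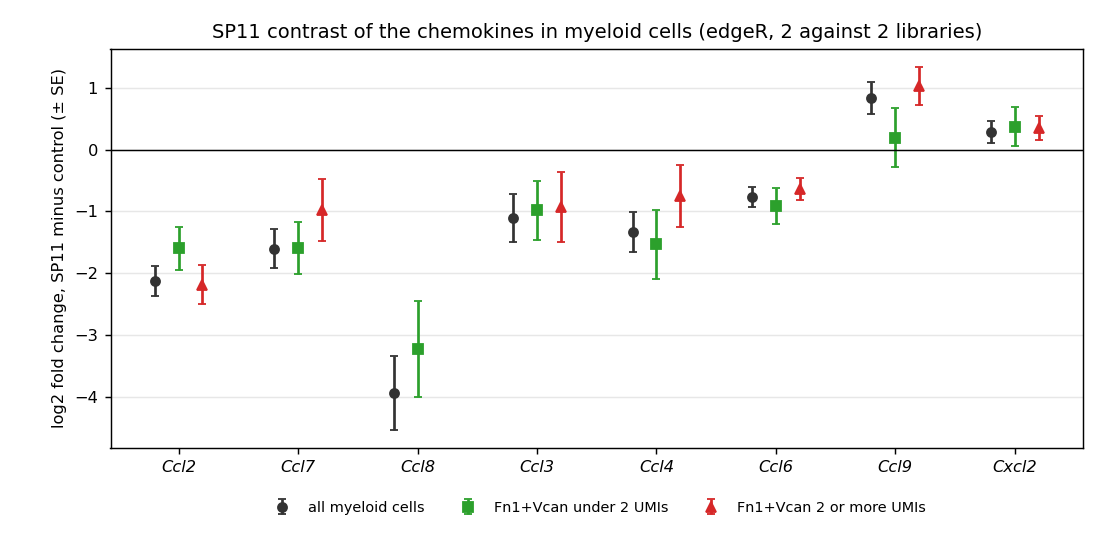
Points give the log2 fold change (SP11 minus control, edgeR, 2 against 2 libraries) of the 8 tested chemokines with bars of 1 SE, for all myeloid cells and for those with under 2 or with 2 or more Fn1 and Vcan UMIs. Ccl2 lies between -2.19 and -1.59 in all 3 fits, Ccl9 is near 0 only in the low cells (0.20), and Ccl8 was not tested in the high cells.

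Over all kept cells, the number of myeloid cells counts as well as their content. There, Ccl6, Ccl7, Ccl3 and Ccl4 were higher in both SP11 libraries than in both controls, although they were lower in both in myeloid cells. How many of all genes were higher in this way was not counted, so this is a description only. Ccl2 had 8.73, 12.6, 8.38 and 10.9 CPM of all UMIs in Control 1, Control 2, SP11 1 and SP11 2, and the groups overlapped. Ccl8 (12.3, 1.46, 3.62 and 0.614 CPM) overlapped as well. Ccl6 had 54.8, 57.2, 148 and 131 CPM, so it was higher with SP11 in the whole suspension (2.49-fold between the means) and lower within myeloid cells. Cxcl2 (33.1, 24.9, 155 and 168 CPM) and Ccl9 (4.21, 2.92, 28.8 and 28.0 CPM) were 5.58-fold and 7.96-fold higher between the means. Ccl3 and Ccl4 were 1.95-fold and 1.97-fold higher, without overlap. Ccl7 had 3.49, 4.18, 4.31 and 5.83 CPM, 1.32-fold higher between the means without overlap. The share of myeloid cells was 3.36% to 3.71% in the controls and 14.6% to 16.6% with SP11. These ratios compare 2 libraries with 2 and were not tested.

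**Figure D5:**
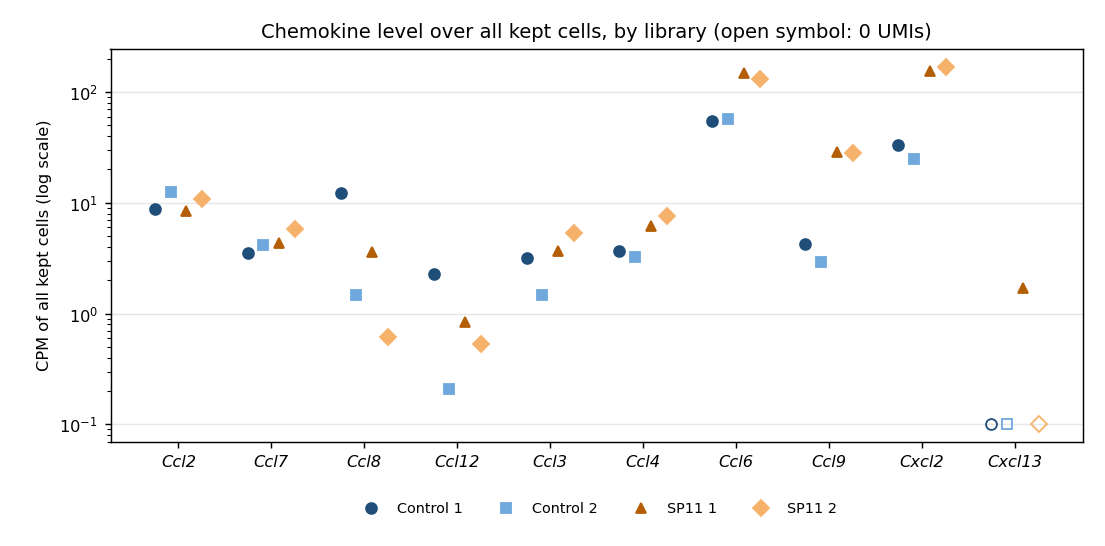
Points give the CPM (log axis) of each chemokine over all kept cells of a library, and open symbols stand for 0 UMIs. Cxcl2, Ccl9 and Ccl6 lie higher in both SP11 libraries (155 and 168 against 33.1 and 24.9 CPM for Cxcl2), while the Ccl2 and Ccl8 points of the groups overlap.

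In tumour cells 3 of these chemokines passed the filter, and Cxcl2 and Ccl6 rose with SP11 from low levels, where 1.55% (177) of 11441 genes were higher and 0.612% (70) lower. Cxcl2 had 100, 65, 362 and 225 UMIs (10.4, 6.88, 32.0 and 19.7 CPM), a log2 fold change of 1.47 (SE 0.22, edgeR adjusted p = 0.000120). Ccl6 had 42, 84, 187 and 123 UMIs (0.94, SE 0.25, edgeR adjusted p = 0.0376). Ccl9 had 3, 6, 42 and 27 UMIs, and it met the minimum of the filter (0.958 CPM in 2 libraries) through the SP11 libraries alone, so that a higher level with SP11 was set by the filter. Its value was 2.54 (SE 0.48, adjusted p = 0.00184), and with no filter it was 2.55 (adjusted p = 0.000115). Both SP11 libraries were above both controls in each case, as they were for 4030 of all 11441 genes tested (938 went the other way). After thinning to 500 UMIs, Cxcl2 was found in 0% to 1.10% and Ccl6 in 0.237% to 1.35% of tumour cells (9.06% to 23.9% and 4.86% to 18.8% unthinned), against 47.4% or more of myeloid cells.

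Macrophage markers in the tumour class also moved with the group, at 4.38 to 5.40 CPM in the controls and 6.49 to 11.6 CPM with SP11. The 7 neutrophil markers summed to 69.8 to 73.2 CPM in the controls and 102 to 152 CPM with SP11, and the 6 monocyte markers to 5.40 to 5.42 and 12.7 to 17.3 CPM. Haemoglobin genes summed to 177 to 268 CPM in the controls and 4886 to 10400 CPM with SP11. For each Ccl6 UMI there were 2.38, 0.774, 1.94 and 1.83 Cxcl2 UMIs in tumour cells and 0.437, 0.368, 0.828 and 0.845 in myeloid cells, so the tumour ratio was above the myeloid one in every library. Neutrophils had still higher ratios where they could be read (2.41 in SP11 1 and 6.75 in SP11 2). Their ratio of 6.50 in Control 1 rests on 13 Cxcl2 UMIs and 2 Ccl6 UMIs, the latter from 1 of 4 barcodes. Barcodes of both the keratin and myeloid gates had 0.379, 0.386, 1.11 and 2.78. In SP11 1 and SP11 2 the tumour ratios lay between those of myeloid cells and neutrophils. Free RNA as a source was not tested. In DESeq2 Cxcl2 (1.46, adjusted p = 0.263) and Ccl6 (0.94, adjusted p = 0.310) did not pass. Over the 12 alternatives Cxcl2 ranged from 1.02 to 1.90 and passed in 11, and Ccl6 was 0.52 or more in each and passed in 6. Without SP11 1, Ccl9 (2.13, adjusted p = 0.0659) and Ccl6 (0.54, adjusted p = 0.362) lost the call, and Ccl6 also lost it without Control 1 (0.52, adjusted p = 0.215). Without shared barcodes Cxcl2 was 1.33 (edgeR adjusted p = 0.00134), Ccl9 2.09 (0.0219) and Ccl6 1.02 (0.0522). The Ccl9 values keep the limit given above: it met the filter through the SP11 libraries alone, so they add no support for a rise.

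Of the other genes of the pathway, few passed in myeloid cells. Among 26 other chemokines 7 were tested, with 1 higher, 0 lower and a median log2 fold change of 0.00. It was Ccl5, a chemokine that T cells also make, which had 1, 0, 36 and 100 UMIs (edgeR adjusted p = 0.00387). It passed the filter through the SP11 libraries alone, so that only a higher level could be called, and no fold is given. Among 22 receptors 4 were tested and 1 rose, Ccr2, the receptor of Ccl2 and Ccl7, from 67.0 and 103 CPM to 248 and 297 CPM (1.80, SE 0.44, adjusted p = 0.0125). Ccr2 is also a marker of monocytes. Among 20 regulators 14 were tested, with 0 higher and 1 lower, and their median was 0.55. Tnf, a cytokine that induces many chemokines, fell from 620 and 454 CPM to 255 and 238 CPM (-1.05, SE 0.29, adjusted p = 0.0262), and did not pass with no filter on low counts (-0.86, adjusted p = 0.212).

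The genes whose levels were most like those of each chemokine were found over 16 sums of a class and a library, which share libraries, so the correlations are a description. Ccl2 was most like Cd68 (Pearson r 0.971), Ctsb (0.963) and Atp6v0c (0.962). Ccl3 and Ccl4 were both most like Dab2 (0.977 and 0.984), Fcgr1 (0.972 and 0.978) and Cd68 (0.965 and 0.975). Ccl7 was closest to Fcgr4 (0.935), Amdhd2 (0.932) and Rbpms (0.921), and Ccl8, with the weakest likeness, to Plk2 (0.870), Jun (0.869) and Slc25a44 (0.869). Ccl6 followed Ifitm3 (0.994), Fcer1g (0.989) and F10 (0.984), and Ccl9 followed Aif1 (0.978), Psap (0.973) and Lyz2 (0.973). Cxcl2 was most like Alox5ap (0.985), Clec4e (0.975) and Lst1 (0.972). Fcer1g and Lyz2 are genes of the myeloid gate. Ccl12 and Cxcl13 had too few UMIs.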

How the data were processed

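Single-cell 3′ libraries (10x Genomics) of 2 control and 2 SP11 samples were analysed. The files deposited by the authors hold UMI counts for genes by barcodes, unnormalized, made with Cell Ranger (7.1.0 in the matrix headers). The submitters' processing notes name mm10, whereas the methods name hg38, and the genes are mouse genes. Cells with at least 200 genes and at most 10% mitochondrial UMIs (13 genes) were kept. Classes were set by UMI sums: tumour (at least 3 keratin UMIs), neutrophil (S100a8, S100a9 and Retnlg at least 10 and above the myeloid sum, which took 2, 1, 15 and 54 cells from the myeloid gate), myeloid (at least 4), lymphoid (at least 2 UMIs of B or of T cell genes) and other, with barcodes of tumour and myeloid gates kept apart. Scrublet (scanpy 1.11.5, Python 3.11.15) with a score limit of 0.25, set after its automatic limits marked 88.9% of Control 1 cells and 0.0546% of SP11 1 cells, marked 46, 10, 13 and 16 cells. They were kept in the main analysis.

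UMIs were summed per library and class and compared by the quasi-likelihood test of edgeR 4.0.16 under R 4.3.3, after filterByExpr and TMM scaling, adjusted by Benjamini-Hochberg over all genes at 0.05, a step also tested on simulated data. Fold changes are log2, SP11 minus control. Shares have exact Clopper-Pearson intervals (95%, scipy 1.17.1), and a share of 0 is given with a limit of 3 counts. The alternatives were DESeq2 1.42.0, no filter, the replicate number as a block, each library left out, 20% mitochondrial UMIs, 500 genes per cell, no marked doublets, a myeloid gate of 8, neutrophils or mixed barcodes kept in, and parts of the myeloid class by Fn1 and Vcan or C1q. Those without the cell with the most Ccl8, with Dcn or Col3a1 cells left out, with only high Fn1 and Vcan cells and without shared barcodes were chosen after seeing the data. Named genes are the 10 chemokines, up to 3 genes per pathway list that passed in myeloid cells, and the 3 most alike genes by Pearson correlation of log2(CPM + 10) over sums of at least 20000 UMIs. The chemokines and lists were chosen with earlier results of these data known. Columns of other samples were not found in the files.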

Additional observations from a re-analysis of the deposited data

Results flagged for a closer look

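The SP11 contrast of Ccl6 differed between the summed UMIs of the myeloid and of the tumour class. The myeloid effect minus the tumour effect was -1.57 on the log2 scale (SE 0.22, edgeR adjusted p = 3.43e-10 over 11590 genes, library as a block), since the level was lower in both SP11 libraries in myeloid cells and higher in both in tumour cells. The tumour level was low, at 6.63 ± 3.19 and 13.7 ± 4.07 CPM (SD, n = 2) against 6779 and 3734 CPM in myeloid cells, its call was lost in 6 of 12 alternatives, and Ccl6 was also 2.49-fold higher with SP11 over all kept cells. The part of RNA from other cells in the tumour level was not tested. For Cxcl2 the same difference was -1.02 (SE 0.21, adjusted p = 0.000307), with both SP11 libraries higher in each class. In all, 77 genes passed this test, and it did not pass for Ccl2, Ccl7, Ccl12, Ccl8, Ccl9, Ccl3 and Ccl4. Tumour cells held 78 UMIs of Ccl9 and from 2 (Ccl12) to 29 (Ccl4) of the others. The difference was -1.53 (SE 0.56, adjusted p = 0.334) for Ccl9. For Ccl2 it was -0.07, with an SE of 1.49 that leaves its size undecided. Tumour cells had 7 and 9 Ccl2 UMIs in Control 1 and Control 2, against 4 in SP11 1 and 1 in SP11 2. Scaled to CPM, Ccl2 was thus lower with SP11 in this class too, which was not tested.

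Barcodes left out for over 10% mitochondrial UMIs held these chemokines in the SP11 libraries at summed levels of 910 CPM in SP11 1 (13 UMIs in 13 barcodes) and 401 CPM in SP11 2 (10 UMIs in 12 barcodes), above the 66.9 and 42.8 CPM of the controls (5 UMIs in 49 barcodes and 3 in 28). A mitochondrial limit of 20% took 1 of these barcodes of SP11 1 and 1 of SP11 2 into the myeloid class. The kept cells differed in the same direction, with 360 and 359 CPM in SP11 1 and SP11 2 against 126 and 108 CPM in Control 1 and Control 2.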

How the results depend on the processing

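No direction of a chemokine was reversed in either class by any alternative that tested it. In myeloid cells the genes called higher, 101 as reported, were 30 in DESeq2, 65 with neutrophils kept in, 24 in cells low in Fn1 and Vcan, 37 in cells with C1q and 40 to 83 with a library left out. The genes called lower, 83 as reported, were 39 with no filter, 33 with neutrophils, 5 in cells low in Fn1 and Vcan, 15 in cells with C1q and 14 to 42 with a library left out. The 1 chemokine called higher (Ccl9) became 0 in DESeq2, at a mitochondrial limit of 20%, without doublets, with neutrophils, in cells low in Fn1 and Vcan, in cells with C1q and without Dcn or Col3a1 cells, and was 0 to 1 with a library left out. The 5 chemokines called lower became 2 in cells low and 2 in cells high in Fn1 and Vcan, 3 without shared barcodes and 3 to 4 with a library left out. In tumour cells the genes called higher, 177 as reported, were 71 in DESeq2, 95 without shared barcodes and 116 to 206 with a library left out, and those called lower, 70 as reported, were 38 in DESeq2 and 49 to 131 with a library left out. The 3 chemokines called higher (Cxcl2, Ccl6 and Ccl9, which passed the filter with SP11 alone) became 1 in DESeq2 and 1 to 3 with a library left out. The 5 chemokines called lower in myeloid cells include Ccl8, which met the filter through the controls alone, so that a lower level was favoured by the filter. Ccl8 was also 1 of the 2 called lower in cells low in Fn1 and Vcan (-3.22, edgeR adjusted p = 0.0463). It was not tested in the high cells or without shared barcodes. Fewer genes were tested in the subsets of cells (570 with C1q), and other causes were not tested.

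The replicate number as a block gave 78 genes higher and 84 lower in myeloid cells, and 281 higher and 199 lower in tumour cells, with the same number of chemokines called in each direction. Deviations from the group means correlated at 0.0407 (myeloid) and 0.123 (tumour) between libraries of the same number, and with 2 pairs the libraries share only a number. The controls held 34 and 19 myeloid cells, with 59720 and 48422 UMIs, which limits what can be said of genes with few UMIs.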
